A study of Mus musculus with 6 samples.

Results

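Transcript levels of 9 brush border hydrolases were examined in RNA-Seq of small intestinal mucosa from mice with and without an intestinal deletion of Rbm47. This gene encodes an RNA-binding protein. The mucosa is labelled small intestinal, and the study describes it as jejunal. The 9 genes are Lct, Sis, Mgam and Treh, which encode disaccharidases, Anpep, Dpp4 and Enpep, which encode exopeptidases, and Mep1a and Mep1b, which encode the meprin subunits. They were taken by gene symbol from the 38561 genes in the tables, and all 9 were among the 16425 genes that passed the filter on low counts. Rbm47-IKO animals carry floxed Rbm47 alleles and a constitutive Vil-Cre transgene, whose villin promoter is active in intestinal epithelium, so that muscle, stromal and immune cells in the tissue are not targeted. Control animals are labelled wt and are described in the study's methods as Rbm47 fl/fl. All animals are labelled C57BL/6J, of both sexes and 8 to 12 weeks old, and each of the 3 pools per genotype held RNA of 3 mice per the labels. Each pool was sequenced once as poly(A) RNA, to between 31560320 and 38951830 counts on genes.

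Digestion of carbohydrate and protein ends at the brush border, the carpet of microvilli on the luminal face of the enterocyte. The enzymes there are anchored in the microvillus membrane with their catalytic domains facing the lumen. Disaccharidases split sugars to monosaccharides, and peptidases trim peptides from pancreatic digestion to amino acids and short peptides that transporters can take up. Their genes are switched on as cells leave the crypt and mature along the villus, and factors of the CDX, HNF1 and GATA families are known regulators of several of them. Lactase is abundant before weaning, whereas sucrase-isomaltase and trehalase are turned on around weaning.

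The targeted gene gives a check of the labels, and its total was not reduced. Rbm47 had 602.7, 624.6 and 619.8 normalized CPM in the pools labelled Rbm47-IKO and 459.8, 449.9 and 472.1 in controls. Normalized CPM is the gene's count relative to the library size after TMM scaling. All Rbm47-IKO pools were above all controls, with a log2 fold change of 0.42 (SE 0.10; edgeR quasi-likelihood test, Benjamini-Hochberg adjusted p = 0.0751). The adjusted p was 0.0094 in DESeq2 and 0.047 in edgeR with library size only. Which exons the deletion removes is not given in the sources used here, and a gene total can include reads from exons that remain. The genotypes below are therefore those of the labels.

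Promoters are shown for Sis, the most abundant disaccharidase transcript, for Anpep, the most abundant peptidase transcript, and for Lct, because pools of the first 2 separated by genotype in opposite directions, without passing the test, and the third is a textbook target of the same factors. Each sequence is the 250 bases before the RefSeq start on the gene's own strand (GRCm38.p6), at chr3:72967864-72968113 (minus strand) for Sis, chr1:128328319-128328568 (minus strand) for Lct and chr7:79848211-79848460 (minus strand) for Anpep. Capitals mark matches on either strand to TTTAT (CDX), GTTAA (HNF1) or GATAA (GATA).
Sis: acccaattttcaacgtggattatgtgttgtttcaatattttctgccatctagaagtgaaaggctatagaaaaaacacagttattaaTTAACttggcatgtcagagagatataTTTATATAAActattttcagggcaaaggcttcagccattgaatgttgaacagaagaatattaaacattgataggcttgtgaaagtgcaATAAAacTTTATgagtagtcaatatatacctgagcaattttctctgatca
Lct: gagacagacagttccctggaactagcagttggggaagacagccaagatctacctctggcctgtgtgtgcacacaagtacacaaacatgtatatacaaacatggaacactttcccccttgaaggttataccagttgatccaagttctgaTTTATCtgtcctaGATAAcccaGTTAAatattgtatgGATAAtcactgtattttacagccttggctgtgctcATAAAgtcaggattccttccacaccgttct
Anpep: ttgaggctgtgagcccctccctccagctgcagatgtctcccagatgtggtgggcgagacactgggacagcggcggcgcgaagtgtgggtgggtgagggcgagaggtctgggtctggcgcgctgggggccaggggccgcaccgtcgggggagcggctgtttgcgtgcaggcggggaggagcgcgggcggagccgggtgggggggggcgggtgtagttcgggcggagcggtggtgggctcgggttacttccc

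The Sis window held 4 matches to the CDX letters and 1 to the HNF1 letters. The Lct window held 2 CDX, 1 HNF1 and 3 GATA matches, of which 1 CDX and 1 GATA match overlap. Anpep had none, in a window with 72.8% G and C, against 31.6% for Sis, 42.8% for Lct and a median of 52.4% over the 32851 RefSeq windows of that length. Treh, with 53.2% G and C, had no match either, and the window of Mgam held 2 CDX, 2 HNF1 and 2 GATA matches. The 2 HNF1 matches of Mgam lie on opposite strands and overlap. Windows of 8 of the 9 genes were searched. Mep1b, on chromosome 18, was left out of the search, whereas the 32851 windows were not filtered by chromosome. CDX letters were present in 5 of the 8, HNF1 letters in 4 and GATA letters in 5, and they were present in 37.3%, 21.7% and 22.6% of all windows. Whether the RefSeq start is the one used in enterocytes was not tested, and Anpep is known to have more than one promoter. A match of such short letters is a description of the sequence and not a binding site.

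These hydrolases were among the most abundant transcripts of the mucosa. Per length, as normalized CPM per kilobase of exon (RPKM), Anpep averaged 2602 over the 6 pools and ranked 15 of 16425 genes. Sis followed at 1346 (rank 27) and Mgam at 1161 (rank 35). Mep1b had 737.2, Lct 638.4 and Enpep 605.8 (ranks 65, 70 and 73). Dpp4 had 372.7 (rank 120), Treh 178.7 (rank 235) and Mep1a 164.4 (rank 254). Anpep stood above every other member in each pool. Among neighbours in this order, the pools of Sis and Mgam, of Lct and Enpep, and of Treh and Mep1a overlapped in both genotypes. Mep1b lay above Lct in the control pools without overlap (780.4 to 954.0 against 526.7 to 668.2) and overlapped it in Rbm47-IKO pools (522.4 to 644.8 against 572.7 to 750.1). Together the 9 genes took 3.58%, 3.83% and 4.04% of all counts in Rbm47-IKO pools and 4.09%, 3.49% and 3.87% in controls, and these ranges overlap. The smallest count of any member in any pool was 9576, for Treh in control pool 1, so that counting error was small beside the spread between pools.

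Between genotypes, none of the 9 genes passed an adjusted p of 0.05 in edgeR or in limma-voom, against 2.7% of all genes tested in edgeR (443 of 16425, of which 238 were higher and 205 lower in Rbm47-IKO). Anpep was higher and Sis and Mep1b were lower in all 3 Rbm47-IKO pools than in any control pool. Those 3 had unadjusted edgeR p-values under 0.05, whereas 16.8% of all genes tested did, and 29.2% of the 383 genes whose mean normalized CPM was at least that of Treh, the lowest member on that scale, which takes no account of length. Pools that did not overlap between genotypes were found for 23.3% of all genes and 36.8% of the 383 abundant ones. The members' 3 of 9 is thus near the share among equally abundant genes. DESeq2 called 2 of the 9, Anpep and Mep1b. It called 7.95% of the genes to which it gave an adjusted p (1132 of 14241, out of 26074 genes entered). The members' median log2 fold change was -0.04, and that of all genes tested was -0.006. As these are p-values over pools, they measure the spread between pools, and an exact permutation test of 3 pools against 3 cannot give a p below 0.1.

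**Figure D1:**
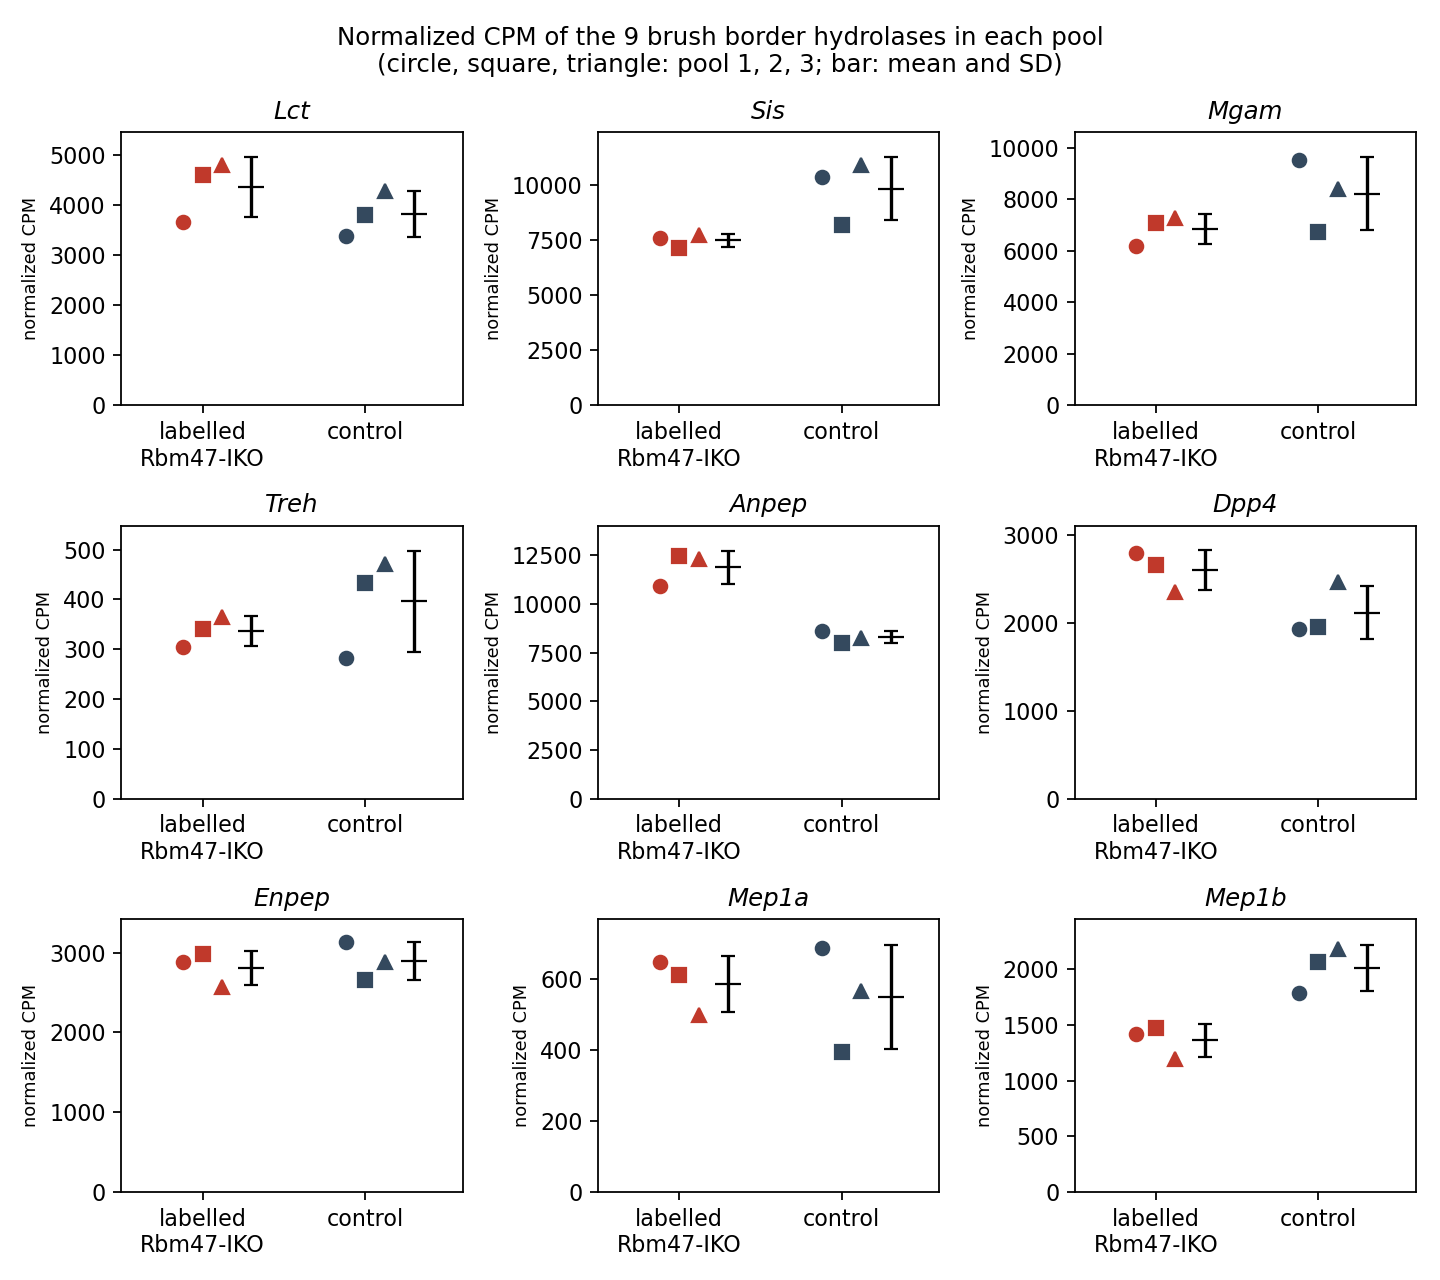
Normalized CPM of each of the 9 hydrolase genes (y axis, from 0) in the 3 pools labelled Rbm47-IKO (red) and the 3 control pools (blue); circle, square and triangle are pools 1, 2 and 3, and the bar is the mean with SD. Anpep pools are separated upward, Sis and Mep1b pools are separated downward, and the other 6 genes overlap.

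The disaccharidases come first. Sis encodes sucrase-isomaltase, which splits sucrose and the isomaltose bonds of starch fragments (Ensembl ENSMUSG00000027790, chr3:72888557-72967863 of GRCm38, minus strand). Its normalized CPM was 7598, 7160 and 7727 in Rbm47-IKO pools and 10367, 8214 and 10948 in controls. All 3 Rbm47-IKO values lay below the lowest control, control pool 2, and were close together. The log2 fold change was -0.39 (SE 0.16, 95% interval -0.76 to -0.02; edgeR adjusted p = 0.271), a level 0.76 times that of controls with an interval of 0.589 to 0.985. It ranged from -0.51 to -0.31 when single pools were left out. In bulk mucosa, fewer enterocytes and less of a transcript per enterocyte cannot be told apart, here and for the genes that follow.

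Mgam encodes maltase-glucoamylase, the other large starch-finishing enzyme of the membrane (ENSMUSG00000068587, chr6:40628831-40769123, plus strand). It had 6188, 7090 and 7273 CPM in Rbm47-IKO pools and 9536, 6715 and 8391 in controls. Control pool 1 was the highest of the 6 and control pool 2 fell within the Rbm47-IKO range. Its log2 fold change was -0.26 (SE 0.17, 95% interval -0.67 to 0.14; edgeR adjusted p = 0.527). As a fold, that interval runs from 0.631 to 1.10. With single pools left out, the log2 fold change ranged from -0.39 (without control pool 2) to -0.14 (without control pool 1).

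Lct encodes lactase-phlorizin hydrolase, the enzyme that splits milk sugar. It had 3669, 4602 and 4805 CPM in Rbm47-IKO pools and 3374, 3807 and 4281 in controls. The groups overlapped, with pool 1 the lowest of each genotype, and the log2 fold change was 0.19 (SE 0.16, 95% interval -0.19 to 0.57; edgeR adjusted p = 0.649). That change ranged from 0.11 without control pool 1 to 0.30 without Rbm47-IKO pool 1. Treh encodes trehalase, which splits the disaccharide trehalose of fungi and insects and was the least abundant disaccharidase here. It had 304.5, 340.2 and 363.8 CPM in Rbm47-IKO pools and 281.6, 433.7 and 471.8 in controls. Control pool 1 was the lowest of the 6 and the other control pools were the highest, so that the control coefficient of variation was 25.4%, against 8.88% in Rbm47-IKO pools. Treh had a log2 fold change of -0.24 (SE 0.20, 95% interval -0.69 to 0.22; edgeR adjusted p = 0.635). That value ranged from -0.43 without control pool 1 to -0.085 without control pool 3. Summed over the 4 disaccharidases, normalized CPM was 17759 to 20169.5 in Rbm47-IKO pools and 19169 to 24091.5 in controls, and these ranges overlap.

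Of the exopeptidases, Anpep encodes aminopeptidase N, which removes neutral residues from the amino end of peptides (chr7:79821803-79848210, minus strand). It had 10906, 12460 and 12303 CPM in Rbm47-IKO pools and 8637, 7991 and 8272 in controls. Every Rbm47-IKO pool was above every control, and both groups were tight, with coefficients of variation of 7.19% and 3.90%. Levels were 1.43-fold higher (95% interval 1.14 to 1.80), a log2 fold change of 0.52 (SE 0.14). The edgeR adjusted p was 0.107, the limma-voom adjusted p was 0.0671 and the DESeq2 adjusted p was 0.0014. Leaving out single pools gave log2 fold changes from 0.48 to 0.58, with edgeR adjusted p-values from 0.153 to 0.432.

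Enpep encodes aminopeptidase A, which is specific for acidic residues and is also known for cutting angiotensin II. Its levels were 2878, 2982 and 2567 CPM in Rbm47-IKO pools and 3137, 2654 and 2887 in controls. These values interleave, with a log2 fold change of -0.04 (SE 0.13; edgeR adjusted p = 0.929). As a fold, its 95% interval was 0.783 to 1.20. Dpp4 encodes dipeptidyl peptidase 4, which releases dipeptides ending in proline or alanine and inactivates incretin hormones. It had 2788, 2651 and 2344 CPM in Rbm47-IKO pools and 1926, 1954 and 2468 in controls. Control pool 3 lay above Rbm47-IKO pool 3, and the log2 fold change was 0.29 (SE 0.15, 95% interval -0.06 to 0.64; edgeR adjusted p = 0.388). Summed over the 3 exopeptidases, of which Anpep is the main part, normalized CPM was 16573 to 18093 in Rbm47-IKO pools and 12598 to 13701 in controls, without overlap.

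Meprins are zinc metalloendopeptidases that cut within peptides and proteins, as a membrane complex of an alpha subunit (Mep1a) and a beta subunit (Mep1b), or in the case of alpha also as a secreted form. Mep1b (chr18:21072344-21100199, plus strand) had 1414, 1474 and 1194 CPM in Rbm47-IKO pools and 1784, 2064 and 2181 in controls. All Rbm47-IKO pools were below all controls. The log2 fold change was -0.56 (SE 0.14, 95% interval -0.89 to -0.23), a level 0.68 times that of controls with an interval of 0.538 to 0.852. The edgeR adjusted p was 0.0905, the limma-voom adjusted p 0.0776 and the DESeq2 adjusted p 0.00889. With scaling by library size only, edgeR gave an adjusted p of 0.039. Leaving out single pools gave log2 fold changes from -0.64 to -0.48, with edgeR adjusted p-values from 0.0896 to 0.290.

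Mep1a did not follow Mep1b. It had 647.5, 612.4 and 498.4 CPM in Rbm47-IKO pools and 686.6, 393.4 and 566.7 in controls, where it was both highest and lowest of the 6 pools. The log2 fold change was 0.09 (SE 0.21, 95% interval -0.40 to 0.59; edgeR adjusted p = 0.897), and it was -0.09 without control pool 2. Summed over both meprins, normalized CPM was 1693 to 2087 in Rbm47-IKO pools and 2458 to 2748 in controls, without overlap, and Mep1b made up most of that sum.

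**Figure D2:**
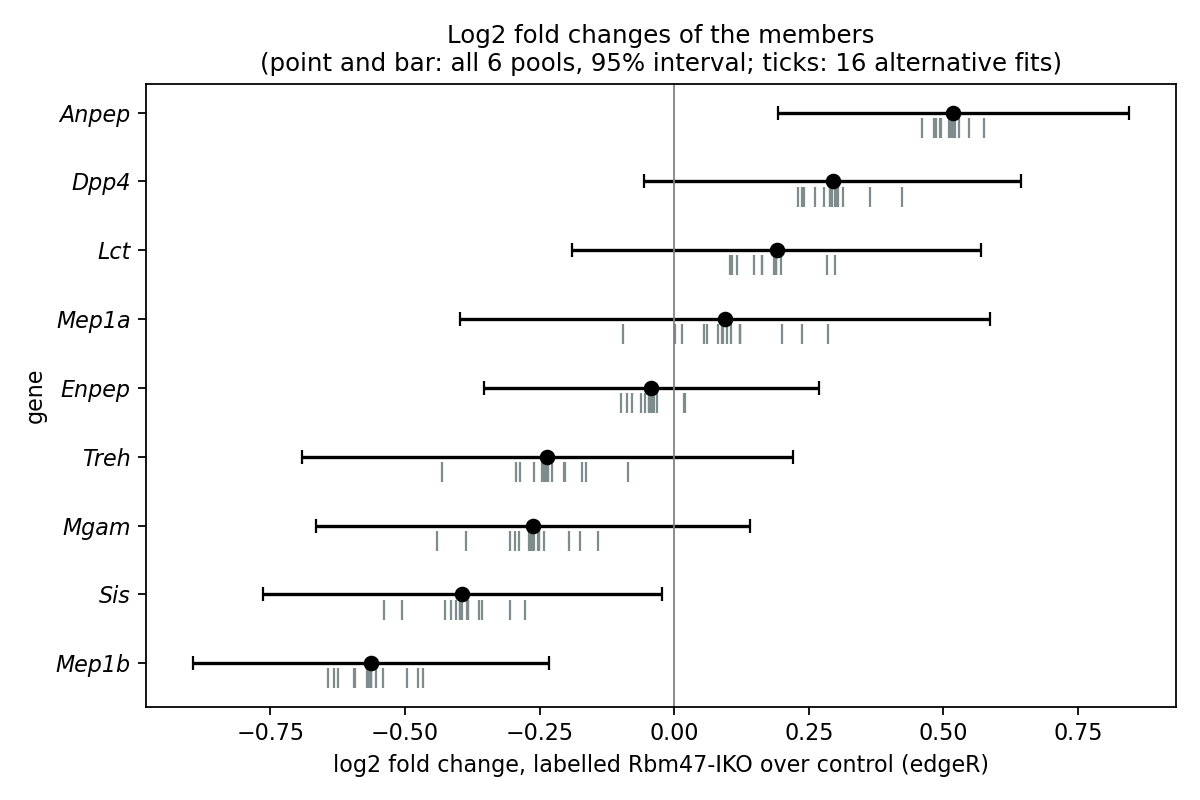
Log2 fold change of each hydrolase gene, Rbm47-IKO over control (x axis), from edgeR on all 6 pools (point, with 95% interval) and under 16 alternative fits (ticks). Intervals of Anpep (0.19 to 0.84), Sis and Mep1b (-0.89 to -0.23) lie to one side of 0, and only Enpep and Mep1a have ticks on both sides of it.

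Within pools, the make-up of the hydrolase transcripts can be compared without scaling between libraries. Anpep took 37.4%, 39.3% and 39.6% of the members' summed RPKM in Rbm47-IKO pools and 28.1%, 29.2% and 26.2% in controls. Sis took 15.7%, 13.6% and 15.0% against 20.3%, 18.1% and 20.9%. Mep1b took 8.22%, 7.89% and 6.53% against 9.85%, 12.8% and 11.7%. Mgam took 12.7%, 13.4% and 14.0% against 18.6%, 14.7% and 15.9%. For these genes the shares of the genotypes did not overlap, those of the other 5 members did, and shares of a fixed total are not independent of each other. How often shares of other genes separate in this way was not computed.

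**Figure D3:**
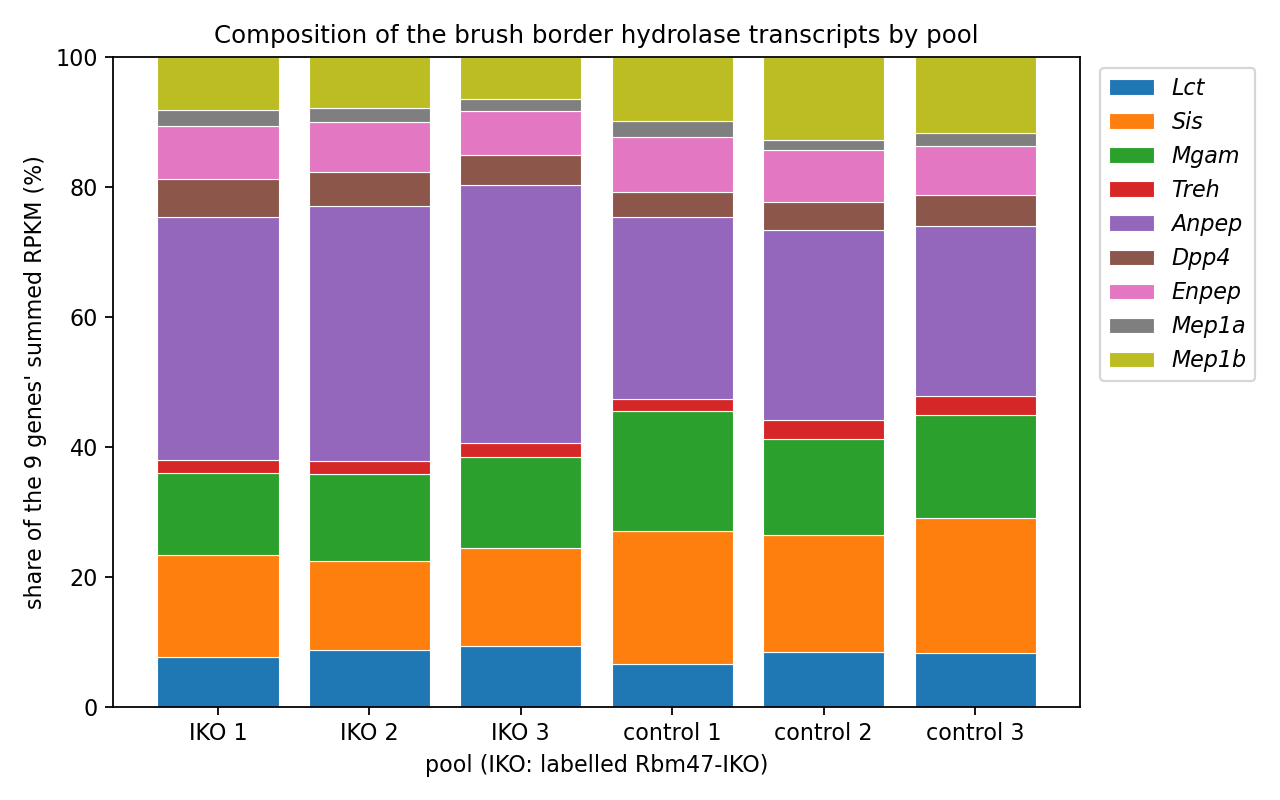
Share of the summed RPKM of the 9 hydrolase genes (y axis, percent) taken by each gene in each pool, from Rbm47-IKO pool 1 to control pool 3. The Anpep band is widest in every pool, at 37.4% to 39.6% in Rbm47-IKO pools and 26.2% to 29.2% in controls.

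Ratios of 2 members within a pool were computed for all 36 pairs. They did not overlap between genotypes for 17 pairs and overlapped for 19. For pairs drawn from the 383 genes at least as abundant, 44.0% of 73153 ratios did not overlap, so that the members' share is close to this background. The smallest exact permutation p for any ratio was 0.1. The ratio of Anpep to Mep1b differed most, at 4.55, 4.98 and 6.07 in Rbm47-IKO pools and 2.85, 2.28 and 2.23 in controls. Mep1a to Mep1b, the ratio of the meprin subunits, was 0.285 ± 0.016 (SD, n = 3) in Rbm47-IKO pools and 0.184 ± 0.065 (SD, n = 3) in controls. Its pools were 0.303, 0.275 and 0.276 against 0.255, 0.126 and 0.172, so that control pool 1 came close to the Rbm47-IKO values.

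Lct to Sis, the lactase to sucrase ratio that falls at weaning, was 0.485, 0.646 and 0.625 in Rbm47-IKO pools and 0.327, 0.466 and 0.393 in controls. Rbm47-IKO pool 1 was only slightly above control pool 2. The aminopeptidase ratio, Anpep to Enpep, was 4.60, 5.07 and 5.82 against 3.34, 3.65 and 3.48, with a clear gap between groups. Sis to Mgam, the pair of starch and sucrose enzymes, was 1.24, 1.02 and 1.07 against 1.09, 1.23 and 1.31. This ratio overlapped between genotypes (exact two-sided permutation p = 0.3).

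**Figure D4:**
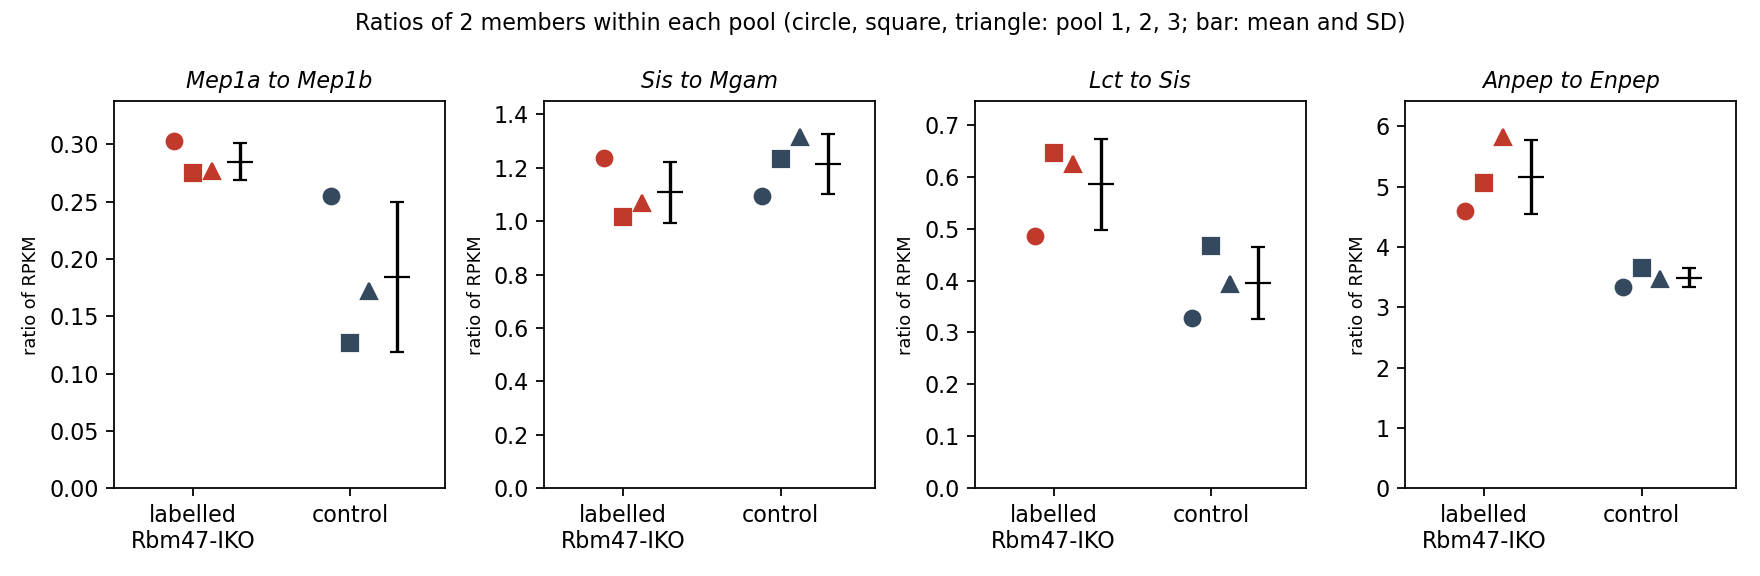
Within-pool RPKM ratios (y axis, from 0) of Mep1a to Mep1b, Sis to Mgam, Lct to Sis and Anpep to Enpep in Rbm47-IKO (red) and control (blue) pools; circle, square and triangle are pools 1, 2 and 3, and the bar is the mean with SD. Sis to Mgam overlaps, and the other 3 ratios are higher in every Rbm47-IKO pool.

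Other membrane hydrolases of the enterocyte formed a list of 16 genes, of which 15 were tested. Akp3, an intestinal alkaline phosphatase gene, was the 1 gene called by edgeR, and it was higher. It had 8.93, 8.47 and 24.8 CPM in Rbm47-IKO pools and 0.941, 2.53 and 2.47 in controls, with a log2 fold change of 2.82 (SE 0.54; adjusted p = 0.0424). The call was lost whichever single pool was left out (edgeR adjusted p from 0.059 to 0.136). The log2 fold change was then 2.13 to 3.08, lowest without Rbm47-IKO pool 3. Mouse intestinal alkaline phosphatase genes are close in sequence, and how reads that match several genes were counted is not given in the sources used here. Tmprss15, enteropeptidase, which activates trypsinogen, had 0.578 to 1.47 CPM in Rbm47-IKO pools and 1.32 to 6.17 in controls, which overlap (log2 fold change -1.66, SE 0.65, adjusted p = 0.255), and the value was -0.63 without control pool 3. With edgeR the list had 3 calls under the CPM filter and 2 each under upper quartile scaling, with library size only and without control pool 1. DESeq2 called 3 genes of the list, and limma-voom called 2 but not Akp3 (adjusted p = 0.0689). The other 2 of DESeq2 and the 2 of limma-voom were Naaladl1, an aminopeptidase, and Asah2, the neutral ceramidase. Naaladl1 was higher in every Rbm47-IKO pool (log2 fold change 0.72, SE 0.15; edgeR adjusted p = 0.0593), and Asah2 was lower in every one (-0.77, SE 0.16; edgeR adjusted p = 0.0547). Over the list, 9 log2 fold changes were above 0 and 6 below, with a median of 0.15.

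The list of 14 genes for microvillus structure had 1 called gene. Pls1, plastin 1, which bundles the actin core of microvilli, had 1170, 1199 and 1081 CPM in Rbm47-IKO pools and 2778, 2188 and 2909 in controls. It fell by 1.19 on the log2 scale (SE 0.15; edgeR adjusted p = 0.0122). Without single pools the log2 fold change ranged from -1.30 to -1.11 and the adjusted p from 0.0124 to 0.0978. Tmigd1, a microvillar adhesion protein, had 59.3 to 76.9 CPM against 44.0 to 151.5, with a log2 fold change of -0.29 (SE 0.45; adjusted p = 0.833) that turned to 0.51 without control pool 1. The other 13 genes, Tmigd1 included, did not pass, 7 of the 14 values were above 0 and 7 below, and the median was -0.01.

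Among 10 transcription factors of brush border enzyme genes, Maf, a factor of villus enterocytes, rose. It had 707.6, 759.5 and 771.3 CPM in Rbm47-IKO pools and 444.1, 402.0 and 509.3 in controls (log2 fold change 0.72, SE 0.13; edgeR adjusted p = 0.0323). This call too was lost whichever single pool was left out (edgeR adjusted p from 0.0545 to 0.196) and without the pools Rbm47-IKO 3 and control 2 together (0.104). The log2 fold change of Maf was 0.65 to 0.82 without single pools and 0.61 without both of those pools. Cdx2 had 265.6, 279.6 and 203.8 CPM against 169.2, 161.5 and 176.1, all higher, with a log2 fold change of 0.56 (SE 0.14; edgeR adjusted p = 0.0835, DESeq2 adjusted p = 0.0139). Of the factors, 8 had a log2 fold change above 0 and 2 below, with a median of 0.21.

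**Figure D5:**
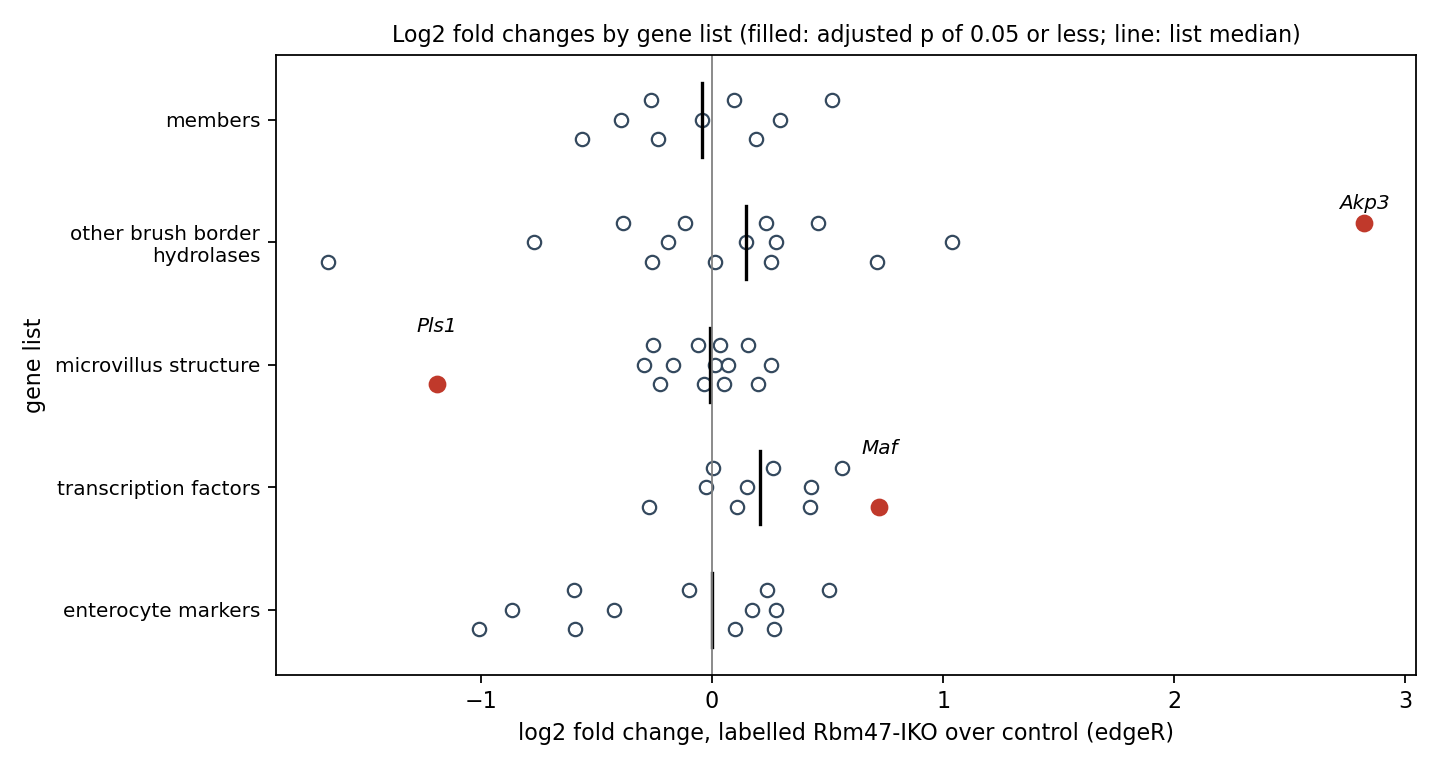
Log2 fold changes, Rbm47-IKO over control (x axis), of the 9 hydrolases, other brush border hydrolases, microvillus structure genes, transcription factors and enterocyte markers (rows); each circle is a gene, filled where the edgeR adjusted p is 0.05 or less, and the line is the list median. Only Akp3, Pls1 and Maf are filled, and the members' median is -0.04.

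Sequence relatives of the 9 enzymes were 10 genes, of which 7 were tested and Mgam2-ps was not analysed here. Fap, a dipeptidyl peptidase of fibroblasts that lies next to Gcg and Dpp4 on chromosome 2 (chr2:62500943-62574075, minus strand), fell by 2.06 on the log2 scale (SE 0.35; edgeR adjusted p = 0.0309). Its counts were only 24, 29 and 30 in Rbm47-IKO pools and 164, 89 and 102 in controls. Single pools left out gave log2 fold changes from -2.26 to -1.70 and edgeR adjusted p-values from 0.0259 to 0.188. Erap1, an aminopeptidase of the endoplasmic reticulum, had a log2 fold change of -0.43 (SE 0.14; adjusted p = 0.159). The list's median was 0.08, with 4 values above 0 and 3 below.

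Markers of enterocytes, other cells and position along the gut were summed per pool. The 12 enterocyte markers summed to 45496 to 51589.7 CPM in Rbm47-IKO pools and 57823 to 62681 in controls. None of the 12 passed in edgeR (6 had unadjusted p under 0.05, and DESeq2 called 5). Of the 12 log2 fold changes 6 were above 0 and 6 below, with a median of 0.001. The sum was weighted by Apob, which had a mean of 10378 CPM in Rbm47-IKO pools and 18912 in controls (log2 fold change -0.87, edgeR adjusted p = 0.0583). Apob passed in 6 alternatives, among them limma-voom (adjusted p = 0.0421), the CPM filter (0.034), upper quartile scaling (0.0441) and library size only (0.0314). Apoa4, like Apob a protein of lipoproteins, was at -1.01 on the same scale (edgeR adjusted p = 0.0802), and passed in DESeq2 (0.000472) and without control pool 1 (0.019). Fabp2, a fatty acid-binding protein, was higher in every Rbm47-IKO pool, by 0.51 on the log2 scale (edgeR adjusted p = 0.178). The 5 goblet cell markers summed to 19851 to 22618 CPM against 14953 to 17356, most of it Fcgbp (means of 14330 and 11092), with 0 called by edgeR, 2 at an unadjusted p under 0.05 and 1 called by DESeq2. The 6 enteroendocrine markers summed to 101.0 to 118.6 against 143.3 to 175.5, with all 6 log2 fold changes below 0, 0 called by edgeR, 4 at an unadjusted p under 0.05 and 2 called by DESeq2. The 4 distal small intestine markers summed to 456.4 to 616.0 against 310.3 to 438.6. In edgeR 0 of these were called and 3 had an unadjusted p under 0.05, and DESeq2 called 2. These were Slc51a, which made up most of the sum (log2 fold change 0.62, edgeR adjusted p = 0.074) and Slc51b (0.64, edgeR adjusted p = 0.153), which form the basolateral bile acid transporter. Fabp6, the ileal bile acid-binding protein, was at 1.93 (edgeR adjusted p = 0.201) and reached 3.20 (adjusted p = 0.0212) without control pool 1. Slc10a2, the apical bile acid transporter, was at -0.47 (edgeR adjusted p = 0.864), and at -0.956 to 1.335 without single pools. Control pool 1 held 44.35 CPM of Slc10a2, against 3.40 and 7.05 in the other controls. The 4 proximal markers overlapped, at 1326 to 1580 against 883.7 to 1459, with Onecut2 at a log2 fold change of -0.53 (-0.04 without control pool 3) and Gata4 at 0.42, 0 called by edgeR or DESeq2 and 1 at an unadjusted p under 0.05. Of the 4 colon markers, Car1 was at 0 counts in every pool and Aqp8 had at most 3 counts in any. Hoxb13, a homeobox gene of the hindgut, had 90, 134 and 169 counts in Rbm47-IKO pools and 0, 21 and 11 in controls, all higher (log2 fold change 3.69, SE 0.85; edgeR adjusted p = 0.0708, DESeq2 adjusted p = 0.0289). Without single pools its log2 fold change ranged from 3.13 to 4.58 and its edgeR adjusted p from 0.0294 to 0.255. Car4, a carbonic anhydrase, was at 0.62 (SE 0.27; edgeR adjusted p = 0.31, and 0.0474 to 0.705 without single pools) and its pools overlapped. The part of cell make-up or position along the gut in the members' values was not tested.

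Smooth muscle markers (6 genes) summed to 360.9, 585.7 and 3302 CPM in Rbm47-IKO pools and 90.7, 2803 and 313.1 in controls, so that Rbm47-IKO pool 3 and control pool 2 stood apart. Without these pools, an alternative chosen with the values known, 0 members were called, and 1 had an unadjusted p under 0.05. Marker sums of Paneth, crypt, tuft, stroma and vessel, B and plasma, and T cells overlapped between genotypes. All 4 Paneth and all 5 B and plasma log2 fold changes were below 0 (medians -0.78 and -0.68). Values above and below 0 numbered 2 and 4 for crypt, 1 and 3 for tuft, 4 and 1 for stroma and vessel, and 3 and 2 for T cells. The pancreas sum was 19.3 CPM in Rbm47-IKO pool 3, which stood apart, and 0.264 to 1.03 in the other 5 pools. The sum of the colon markers overlapped too, but was almost all Car4. In edgeR 0 genes of these lists were called. Only the crypt and colon lists had genes at an unadjusted p under 0.05 (1 each), and DESeq2 called 1 in each of these and 0 in the others.

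Markers of sex and of strain differed between pools. Xist, expressed from the inactive X of females, stood at 75.6, 258.1 and 40.3 CPM in Rbm47-IKO pools against 1.09, 150.0 and 0.686 in controls, so that control pools 1 and 3 held almost none. Summed, the 4 Y-linked genes Kdm5d, Eif2s3y, Uty and Ddx3y gave 138.6, 53.0 and 143.7 CPM in Rbm47-IKO pools and 215.4, 87.9 and 220.3 in controls. With this sum as a covariate, also chosen with the values known, the log2 fold change was 0.51 (SE 0.18) for Anpep, -0.63 (SE 0.17) for Mep1b and -0.28 (SE 0.18) for Sis, and edgeR called 0 members. Akp3, Pls1, Maf and Fap were not called with this covariate either (edgeR adjusted p = 0.125, 0.0752, 0.111 and 0.13). Their log2 fold changes were 2.90, -1.13, 0.77 and -1.83 with it, against 2.82, -1.19, 0.72 and -2.06 in the main fit. Nnt, which carries a loss-of-function deletion in C57BL/6J mice, was at 19.1, 19.2 and 22.7 CPM in Rbm47-IKO pools and 54.3, 85.6 and 78.2 in controls (log2 fold change -1.84, SE 0.18; edgeR adjusted p = 0.00875). Strain background and genotype cannot be told apart in these pools.

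Genes whose pattern over the 6 pools was most like the mean log2 CPM of the 9 members were sought among 7906 genes with a mean of at least 10 CPM. The 5 closest were Zfp266 (Pearson r = 0.985), Il10rb (0.979), Lpin3 (0.968), Angel2 (0.967) and Usp37 (0.95). The mean of the members varied little, from 11.25 in control pool 2 to 11.49 in control pool 3, and the 6 points share libraries and scaling, so that these values are a description.

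Some members share their place with other genes, and the use of strand in counting is not given in the sources used here. Dpp4 overlaps the antisense gene Gm13561 (highest count 415), Mep1b overlaps the pseudogene Gm6378 on the opposite strand (highest count 238), and the end of Treh overlaps Phldb1 by 2 bases (highest count 841). These counts are small beside those of the members, which were 65499 or more for Dpp4, 38990 or more for Mep1b and 9576 or more for Treh.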

How the data were processed

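Poly(A) RNA of 6 pools (3 labelled Rbm47-IKO, 3 labelled wt) was sequenced on an Illumina HiSeq2000. The authors deposited 1 table per pool with raw read counts on 38561 Ensembl genes. Deposited beside them were CPM (counts scaled by library total) and RPKM (CPM divided by gene length in kilobases), which were only used as a check. The submitters' processing notes name STAR 2.5.1a, Subread, featureCounts 1.4.6-p5 and GRCm38, and the use of strand is not given in the sources used here.

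Counts of all genes past filterByExpr (16425) were tested with the quasi-likelihood test of edgeR 4.0.16 in R 4.3.3, with TMM scaling, 6 pools, genotype as the only term and Benjamini-Hochberg adjustment over all genes tested; the threshold was an adjusted p of 0.05, as in the study's methods. SE and 95% intervals were taken from the F statistic. Normalized CPM uses TMM library sizes, RPKM divides it by the deposited exon length, and log2 CPM used a prior count of 2. The script was tested on simulated data. Alternatives were other filters and scalings, DESeq2 1.42.0, limma-voom (limma 3.58.1), a replicate block and leaving out each pool (14 in all), and 2 chosen after seeing the data. Members and gene lists were chosen with earlier results of these data known. Named genes were Rbm47, the members, the 5 most alike and, in each list down to the distal small intestine, every called gene and the 2 of largest change with at least 1 CPM; other marker lists are given as sums and counts, a narrower use of the rule. Nnt, Xist, Fcgbp, Car1, Car4, Aqp8, Hoxb13, Naaladl1, Asah2, Fabp2, Slc51a, Slc10a2 and the Y-linked genes are no part of that rule: their values had been seen when they were chosen. The pools are separate by label, no 2 tables were identical, and the total counts ranged from 31560320 to 38951830. Reads are not independent molecules.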

Additional observations from a re-analysis of the deposited data

How the results depend on the processing

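The count of genes called in edgeR (443) was 1132 in DESeq2, 100 with the replicate block and 58 with Y-linked RNA as a covariate. With single pools left out it ranged from 0 (without Rbm47-IKO pool 2, where 1729 genes still had an unadjusted p under 0.05) to 431. Other low values were 11 without control pool 3, 32 without Rbm47-IKO pool 1 and 119 without Rbm47-IKO pool 3. It was 383 to 614 under the other filters and scalings. The count of members called (0) was 2 in DESeq2 and 1 with library size only, and 0 in every other fit, including those without 1 pool. Log2 fold changes of Enpep, Mep1a, Tmigd1 and Slc10a2 changed sign, that of Slc10a2 with single pools left out (-0.956 to 1.335). Without single pools, Enpep ranged from -0.099 to 0.021 (above 0 without Rbm47-IKO pool 3 or control pool 1), Mep1a from -0.094 to 0.29 (below 0 without control pool 2) and Tmigd1 from -0.59 to 0.51 (above 0 without control pool 1). Tmigd1 was at 0.026 with Y-linked RNA as a covariate. The causes were not tested. With the replicate block Akp3, Pls1, Maf and Fap were no longer called (adjusted p = 0.053, 0.0712, 0.0911 and 0.0808), and 1 member had an unadjusted p under 0.05.

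Same-numbered pools correlated at 0.41, -0.003 and -0.28 in their deviations from the group means. Not every pool correlated best with its own number, and the highest value, 0.48, joined Rbm47-IKO pool 3 and control pool 2. Whether the numbers pair the samples is not given in the sources used here. These correlations cannot decide it, as they rest on 3 pools per genotype. The depth of 31560320 counts or more leaves counting error small for the members; 3 pools per genotype limit the precision.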
